A study of Mus musculus with 8 samples.

Results

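The genes described here are those of fatty acid oxidation together with the peroxisome proliferator-activated receptors (PPARs) and their coactivators. They were taken as a fixed list of 39 mouse gene symbols, chosen by function and matched to the Ensembl identifiers of the count tables. All 39 were found among the 46078 genes listed, and all 39 were among the 14736 genes that passed a filter on low counts. The list holds 5 acyl-CoA synthetases, 5 genes of the carnitine shuttle, 8 acyl-CoA dehydrogenases and electron transfer genes, 9 genes of the later mitochondrial steps, 7 peroxisomal genes, and 5 PPAR and coactivator genes.

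Bulk RNA sequencing was performed on infarcts of wild type male C57BL/6J mice that were 18 months old. DH stroke had been induced in both groups, a model in which the distal middle cerebral artery is occluded and the mouse is then exposed to hypoxia. Beginning 1 week after stroke, one group received sterile PBS (vehicle, n = 4) and the other HPβCD (2-hydroxypropyl-β-cyclodextrin, 4 g/kg, n = 4), a cyclic oligosaccharide that binds lipids. Both were given under the skin 3 times per week for 6 weeks, and infarcts were collected at 7 weeks after stroke. Sampling was by hand, and how much adjoining tissue each sample held is not given in the sources used here. The labels number the samples as replicates and do not say that each came from its own mouse. They are called animals here, and p-values measure the spread between these samples.

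Fatty acids are activated by coupling to coenzyme A, carried into mitochondria as carnitine esters, and shortened in repeated cycles of dehydrogenation, hydration, a second dehydrogenation and thiolysis. Very long and branched chains are first shortened in peroxisomes. PPARs are nuclear receptors that bind fatty acids and regulate many of these enzymes. In the brain, fatty acid oxidation is mainly a function of astrocytes and other non-neuronal cells, and in lesions macrophages take up lipid debris and oxidise part of it.

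Libraries held 16.62 to 32.93 M gene counts. Cell type markers differed widely between them. The summed level of 8 neuron markers was 1350, 57.6, 8590 and 24.6 CPM (counts scaled to the library total and its TMM factor) in vehicle animals 1 to 4, and 11.3 to 106 CPM in HPβCD animals. Vehicle animals 1 and 3 thus stood apart, and results that rest on them are given with and without them. Summed foamy macrophage markers ranged from 5880 to 10900 CPM in vehicle infarcts and from 13700 to 23200 CPM in HPβCD infarcts, and fibroblast markers from 2190 to 5730 CPM and from 8250 to 8810 CPM. Astrocyte markers ranged from 2240 to 9870 CPM with vehicle and from 633 to 2580 CPM with HPβCD. In bulk tissue, fewer cells of a type and less RNA per cell cannot be told apart.

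By edgeR, *Cpt1a* was higher in HPβCD infarcts and no other of the 39 genes passed the threshold (adjusted p under 0.05 over all genes tested). That is 1 gene higher, against 1.17% of all genes tested, and 0 lower, against 0.774%. In either direction the call covered 2.56% of the 39 genes and 1.95% of all genes. DESeq2, the tool used in the study, called 8 of the 39 genes higher (20.5%, against 5.92% of all genes it tested) and 3 lower (7.69%, against 11.1%). The 8 were *Cpt1a*, *Slc25a20*, *Acadl*, *Hadh*, *Hadha*, *Echs1*, *Acox3* and *Hsd17b4*, and the 3 were *Acsl3*, *Acsl6* and *Ppargc1a*. The same 8 genes were those for which every HPβCD value lay above every vehicle value (20.5%, against 8.77% of all genes). For *Acsl3*, *Acsl6*, *Ppargc1a* and *Ppara* every HPβCD value lay below every vehicle value (10.3%, against 8.03%). An unadjusted edgeR p under 0.05 was found for 12 of the 39 genes (30.8%, against 27.8% of all genes).

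Log2 fold changes of the 39 genes ranged from -2.34 to 0.82, with a median of 0.19, beside a median of -0.05 over all genes tested. They lay above 0 for 29 genes (74.4%, against 45.9% of all genes). By role, the median was -0.09 for activation, 0.40 for the carnitine shuttle, 0.16 for the dehydrogenases and electron transfer, 0.34 for the later mitochondrial steps, 0.10 for the peroxisome, and 0.19 for PPARs and coactivators. The plot of fold changes by role sets these beside the values obtained without vehicle animals 1 and 3.

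**Figure D1:**
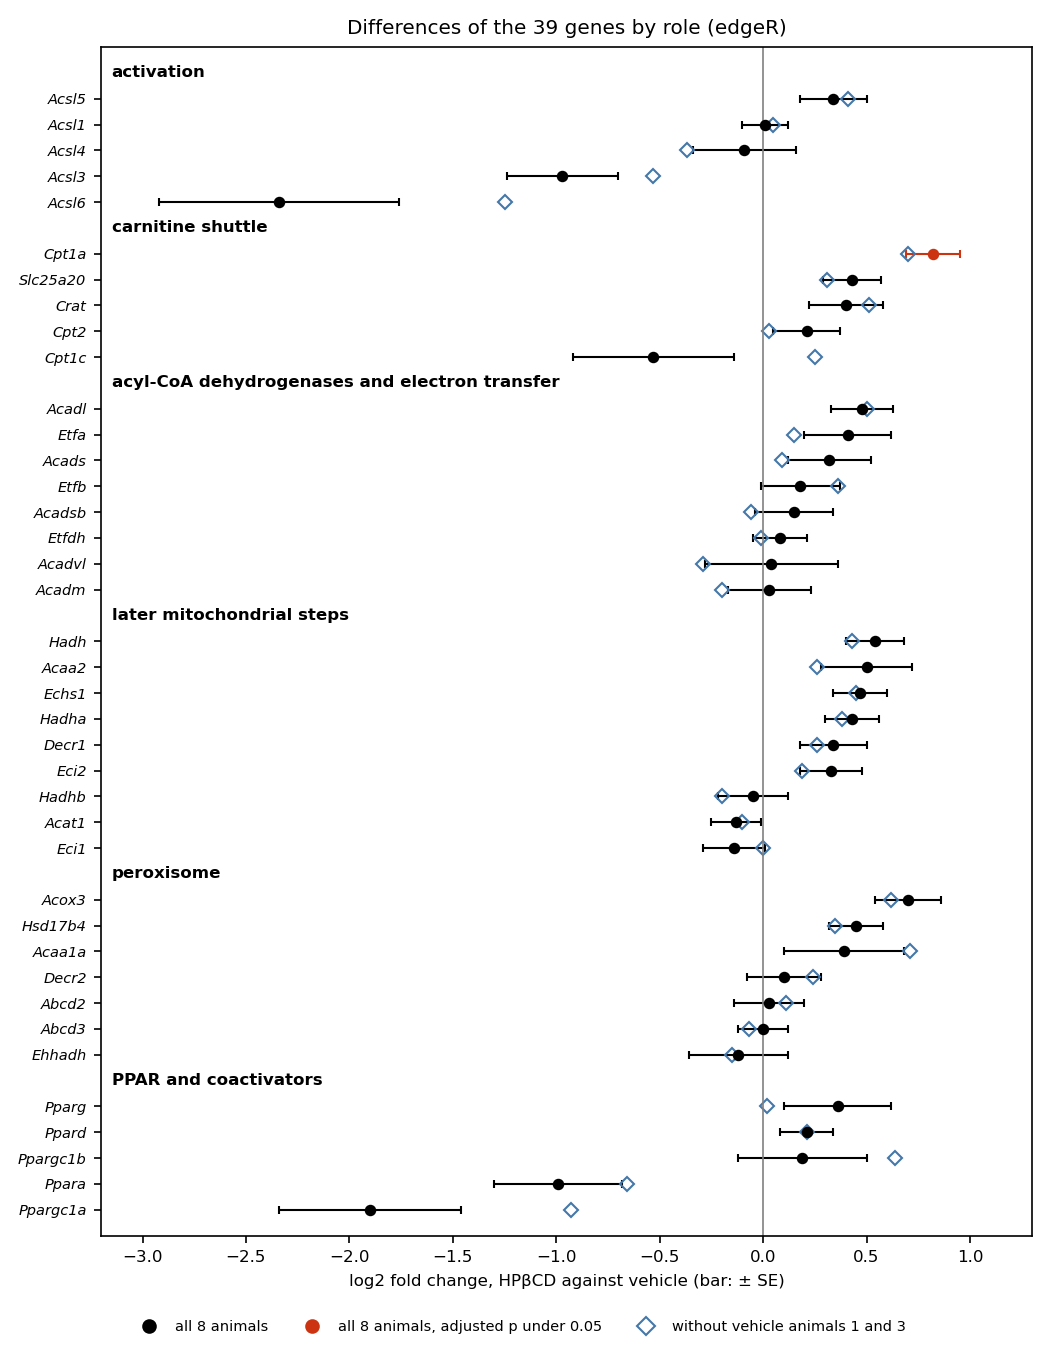
Log2 fold change of each of the 39 genes in HPβCD against vehicle infarcts by edgeR, grouped by role; points are estimates from 8 animals with bars of ± 1 SE, and open diamonds are estimates without vehicle animals 1 and 3. *Cpt1a* (0.82, drawn in red) passed the threshold, and *Acsl6* (-2.34) and *Ppargc1a* (-1.90) had the lowest values, which move to -1.25 and -0.93 without the 2 animals.

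PPARs bind DNA as partners of retinoid X receptors at repeats of the hexamer AGGTCA. Sequence upstream of the start site is shown for *Cpt1a*, the gene that passed the test, for its relative *Cpt1c*, and for *Acsl6*, the gene with the lowest fold change. RefSeq gave 3 start sites for *Acsl6*, and the stretch shown was kept because it alone of these held the hexamer. Each stretch runs from 250 to 31 bases before a RefSeq start site on GRCm38.p6, 5′ to 3′ on the strand of the gene, with the hexamer on either strand in capitals. They lie at chr19:3323051-3323270 on the plus strand (*Cpt1a*, within the first intron of a longer annotated transcript), chr7:44974882-44975101 on the minus strand (*Cpt1c*) and chr11:54303574-54303793 on the plus strand (*Acsl6*).
Cpt1a: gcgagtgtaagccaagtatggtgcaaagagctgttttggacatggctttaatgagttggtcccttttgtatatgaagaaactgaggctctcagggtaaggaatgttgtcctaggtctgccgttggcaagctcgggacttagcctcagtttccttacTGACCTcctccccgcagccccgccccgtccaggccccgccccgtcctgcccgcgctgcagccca
Cpt1c: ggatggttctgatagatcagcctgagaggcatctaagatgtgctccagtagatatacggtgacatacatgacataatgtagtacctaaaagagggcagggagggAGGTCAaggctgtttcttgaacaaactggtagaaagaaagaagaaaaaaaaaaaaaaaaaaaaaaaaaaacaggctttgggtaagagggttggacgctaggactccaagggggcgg
Acsl6: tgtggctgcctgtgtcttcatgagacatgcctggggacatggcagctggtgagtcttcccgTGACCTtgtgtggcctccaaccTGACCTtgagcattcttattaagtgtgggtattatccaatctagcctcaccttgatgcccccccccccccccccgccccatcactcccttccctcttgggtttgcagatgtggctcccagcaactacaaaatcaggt

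RefSeq windows from 250 bases before to 50 bases after the start site were found for 32 of the 39 genes. The hexamer, on either strand, occurred in 7 of the 32 (21.9%), namely *Acsl6*, *Cpt1a*, *Cpt1c*, *Acadm*, *Acadvl*, *Echs1* and *Pparg*, and in 18.1% of all genes with a window. The repeat AGGTCANAGGTCA was in none of the 32 and in 0.0481% of all genes with a window. The longer form TNAAGGTCA, which contains the hexamer, was found in *Acsl6* alone (3.12% of the 32, against 1.43% of all genes with a window). These are matches of letters in a short window, with no measurement of binding.

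Activation was represented by the long-chain acyl-CoA synthetases. *Acsl6*, a form known from neurons and astrocytes that favours polyunsaturated fatty acids (ENSMUSG00000020333, chr11:54303798-54364756), measured 96.1, 33.4, 166 and 48.1 CPM in vehicle animals 1 to 4 and 9.83, 10.5, 27.3 and 20.2 CPM in HPβCD animals 1 to 4. Every HPβCD animal was below every vehicle animal, and vehicle animals 1 and 3 were the highest. The log2 fold change was -2.34 ± 0.58 (SE, adjusted p = 0.0686 by edgeR), and DESeq2 called it lower (adjusted p = 0.000426). Without vehicle animals 1 and 3 the edgeR value was -1.25 (adjusted p = 0.162).

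*Acsl3*, a form of the endoplasmic reticulum and lipid droplets, measured 185, 112, 226 and 134 CPM with vehicle and 59.8, 71.2, 109 and 95.3 CPM with HPβCD. The groups did not overlap, although vehicle animal 2 and HPβCD animal 3 lay close together. Its log2 fold change was -0.97 ± 0.27 (SE, adjusted p = 0.0775 by edgeR), and -0.53 without vehicle animals 1 and 3. Levels of both synthetases were highest in the 2 libraries with the highest neuron and astrocyte markers, and the part of those cells in the difference was not tested.

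*Acsl1*, the widely expressed form, hardly varied, at 46.4, 45.3, 49.5 and 46.9 CPM with vehicle and 47.9, 47.0, 49.0 and 45.5 CPM with HPβCD. Its log2 fold change was 0.01 ± 0.11 (SE, adjusted p = 0.966 by edgeR). *Acsl4*, which favours arachidonic acid, measured 221, 239, 149 and 343 CPM with vehicle and 192, 227, 190 and 283 CPM with HPβCD, with wide overlap. *Acsl5* ranged from 80.5 to 105 CPM with vehicle and from 86.5 to 132 CPM with HPβCD. The 5 synthetases summed to 522 to 695 CPM in vehicle infarcts and 433 to 531 CPM in HPβCD infarcts.

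*Cpt1a* encodes the carnitine palmitoyltransferase of the outer mitochondrial membrane that sets the rate of entry of long-chain fatty acids (ENSMUSG00000024900, chr19:3322334-3385733). It measured 78.7, 103, 83.6 and 93.1 CPM in vehicle animals 1 to 4 and 155, 169, 160 and 149 CPM in HPβCD animals 1 to 4. All HPβCD animals were well above all vehicle animals, and the spread within each group was small. *Cpt1a* rose 1.76-fold, or by 0.82 ± 0.13 on a log2 scale (SE, adjusted p = 0.0427 by edgeR and 1.3e-05 by DESeq2). Without vehicle animals 1 and 3 the log2 fold change was 0.70 (adjusted p = 0.0443 by edgeR). Leaving out single animals gave 0.77 to 0.90, and the adjusted p was above the threshold without vehicle animal 1 (0.149), vehicle animal 4 (0.0635), HPβCD animal 1 (0.155), HPβCD animal 2 (0.172) or HPβCD animal 3 (0.0899). Summed foamy macrophage, fibroblast and oligodendrocyte precursor markers were also higher in every HPβCD infarct than in every vehicle infarct. Of the 6 oligodendrocyte precursor genes, 4 had log2 fold changes below 0. Choroid plexus and adipocyte sums, at most 18.4 and 3.22 CPM, separated in the same way. The part of any of these lists in the difference in *Cpt1a* was not tested.

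*Cpt1c*, a relative known from neurons and located in the endoplasmic reticulum, measured 20.2, 14.5, 47.6 and 13.5 CPM with vehicle and 16.5, 19.7, 16.4 and 13.5 CPM with HPβCD. Vehicle animal 3, with the highest neuron markers, was far above the rest, and the groups overlapped. The log2 fold change of -0.53 ± 0.39 (SE, adjusted p = 0.418 by edgeR) turned to 0.25 without vehicle animals 1 and 3.

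*Slc25a20*, the carrier that moves acylcarnitines across the inner membrane, ranged from 20.8 to 26.6 CPM with vehicle and from 28.5 to 34.7 CPM with HPβCD. Its log2 fold change was 0.43 ± 0.14 (SE, adjusted p = 0.0963 by edgeR and 0.0469 by DESeq2). The groups of *Cpt2*, the matching transferase of the inner membrane, overlapped at 13.8 to 21.3 and 18.3 to 21.1 CPM. *Crat*, which acts on acetyl groups, ranged from 16.6 to 25.4 CPM with vehicle and from 21.3 to 28.4 CPM with HPβCD. The 5 carnitine genes summed to 152 to 193 CPM in vehicle infarcts and 231 to 271 CPM in HPβCD infarcts, with *Cpt1a* the largest contributor.

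**Figure D2:**
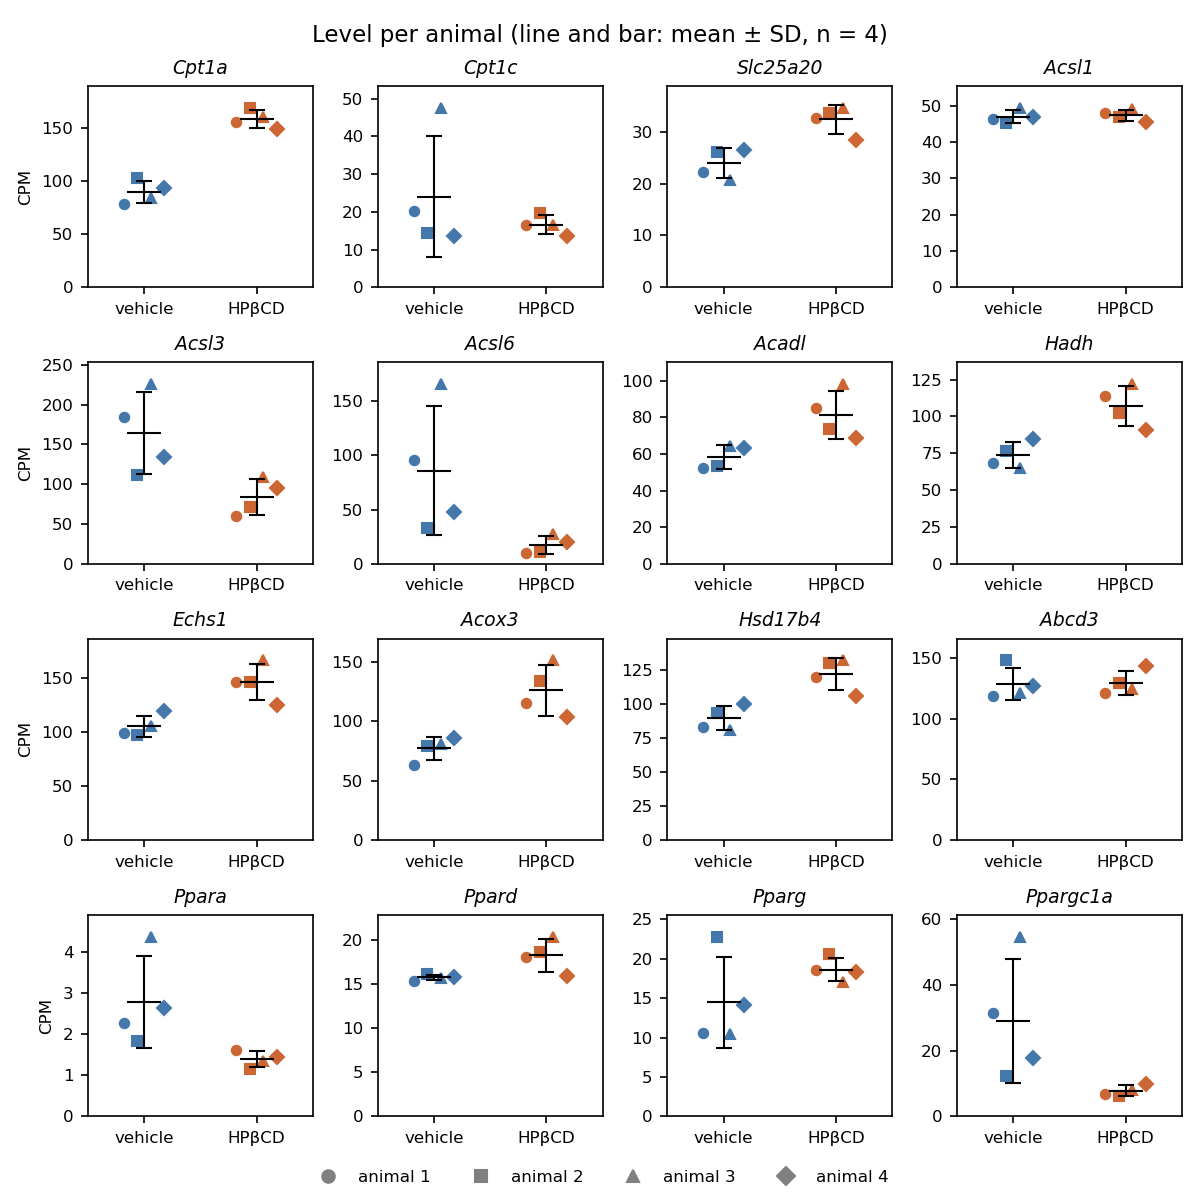
Level of 16 genes in each animal, in CPM on a linear axis from 0; symbols mark animal numbers, horizontal lines are means and bars are ± 1 SD (n = 4 per group). *Cpt1a* separates at 78.7 to 103 against 149 to 169 CPM, *Acsl1* and *Abcd3* show overlapping groups, and in *Acsl6*, *Acsl3*, *Ppara* and *Ppargc1a* vehicle animal 3 is the highest.

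All 8 genes of the acyl-CoA dehydrogenases and of electron transfer had log2 fold changes above 0, from 0.03 to 0.48, of which those of *Acadm*, *Acadvl* and *Etfdh* were below 0 with library totals as the scaling, and none passed the test. Without vehicle animals 1 and 3 those 3 and *Acadsb* were below 0. *Acadl*, long-chain acyl-CoA dehydrogenase, measured 52.3, 53.2, 64.5 and 63.0 CPM with vehicle and 84.9, 73.5, 98.3 and 68.6 CPM with HPβCD. The groups did not overlap, with a log2 fold change of 0.48 ± 0.15 (SE, adjusted p = 0.0935 by edgeR and 0.0397 by DESeq2). *Acadm*, the medium-chain enzyme, overlapped fully at 87.6, 96.7, 62.4 and 121 CPM with vehicle and 86.4, 96.2, 85.4 and 108 CPM with HPβCD.

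*Etfa*, the alpha subunit of the electron transfer flavoprotein that takes electrons from the dehydrogenases, measured 50.2, 56.7, 32.1 and 69.2 CPM with vehicle and 73.1, 66.4, 65.6 and 71.1 CPM with HPβCD. Vehicle animal 3 was the lowest and vehicle animal 4 lay within the HPβCD range, and the log2 fold change of 0.41 ± 0.21 (SE, adjusted p = 0.252 by edgeR) was 0.15 without vehicle animals 1 and 3. For *Acads*, *Acadvl*, *Acadsb*, *Etfb* and *Etfdh* the log2 fold changes lay between 0.04 and 0.32. *Acadvl* overlaps *Dvl2* on the opposite strand over 42.9% of its exon length and *Etfb* overlaps another annotated gene over 58.2%, so counts of both are uncertain.

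Of the 9 genes of the later mitochondrial steps, 3 had groups that did not overlap, all higher (33.3%, against 8.77% of all genes). *Hadh*, which oxidises short-chain 3-hydroxyacyl-CoA, measured 68.6, 76.5, 65.1 and 84.4 CPM with vehicle and 114, 102, 122 and 90.4 CPM with HPβCD. All 4 HPβCD animals were above the vehicle animals, animal 4 by the least, and the log2 fold change was 0.54 ± 0.14 (SE, adjusted p = 0.0708 by edgeR and 0.0143 by DESeq2). *Echs1*, the short-chain enoyl-CoA hydratase, ranged from 96.7 to 119 CPM and from 125 to 166 CPM. *Hadha*, the alpha subunit of the trifunctional protein, ranged from 93.0 to 107 CPM and from 120 to 158 CPM.

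*Hadhb*, the beta subunit of the same complex, did not follow it, at 48.5 to 70.6 CPM with vehicle and 46.7 to 70.2 CPM with HPβCD. It shares 16.7% of its 75-base stretches with other annotated genes, so its counts are uncertain. *Acaa2*, the mitochondrial thiolase, measured 146, 185, 112 and 195 CPM with vehicle and 189, 246, 179 and 285 CPM with HPβCD. The groups overlapped, with a log2 fold change of 0.50 ± 0.22 (SE, adjusted p = 0.187 by edgeR).

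Per length of transcript, *Acaa2* had the highest level of the 39 genes, at 105 ± 25.1 CPM per kb with vehicle and 148 ± 33.0 CPM per kb with HPβCD (SD, n = 4). *Echs1* came next at 67.5 ± 6.54 and 93.8 ± 10.7 CPM per kb. *Hadh* had 41.2 ± 4.82 and 59.9 ± 7.75 CPM per kb. With vehicle the means of *Acsl4* (45.1), *Acadm* (44.9) and *Acsl3* (41.6 CPM per kb) were slightly above that of *Hadh*, by less than their spread. *Ppara* was the lowest, at 0.813 ± 0.324 CPM per kb with vehicle and 0.407 ± 0.0546 CPM per kb with HPβCD.

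The remaining genes of this group were *Acat1*, which splits acetoacetyl-CoA, the isomerases *Eci1* and *Eci2*, and the reductase *Decr1*, which acts on unsaturated chains. Their log2 fold changes were -0.13, -0.14, 0.33 and 0.34, and none passed the test. The 9 genes summed to 570 to 728 CPM in vehicle infarcts and 785 to 870 CPM in HPβCD infarcts.

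Among peroxisomal genes, *Acox3*, an acyl-CoA oxidase for branched chains (ENSMUSG00000029098, chr5:35583040-35615352), measured 63.2, 79.3, 81.0 and 85.4 CPM with vehicle and 115, 134, 151 and 103 CPM with HPβCD. The groups did not overlap, and the log2 fold change was 0.70 ± 0.16 (SE, adjusted p = 0.0599 by edgeR and 0.00381 by DESeq2). *Hsd17b4*, the bifunctional protein of the next 2 peroxisomal steps, measured 83.2, 93.4, 81.1 and 99.7 CPM with vehicle and 120, 130, 132 and 106 CPM with HPβCD. It did not overlap either, with a log2 fold change of 0.45 ± 0.13 (SE, adjusted p = 0.0802 by edgeR and 0.0206 by DESeq2).

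The transporters overlapped between groups. *Abcd3*, which carries branched and dicarboxylic acids into peroxisomes, measured 119, 148, 121 and 127 CPM with vehicle and 121, 129, 124 and 143 CPM with HPβCD, a log2 fold change of 0.00 ± 0.12 (SE). *Abcd2*, which carries very long chains, measured 89.8, 90.1, 116 and 97.3 CPM with vehicle and 77.3, 93.7, 112 and 118 CPM with HPβCD. *Ehhadh*, the other bifunctional enzyme, ranged from 3.37 to 6.14 CPM over all animals. Log2 fold changes were 0.39 for the thiolase *Acaa1a*, which shares 12.6% of its 75-base stretches with other genes, and 0.10 for the reductase *Decr2*.

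Log2 fold changes of the receptors and coactivators were of either sign, and none passed the test. *Ppargc1a*, a coactivator that drives mitochondrial biogenesis (ENSMUSG00000029167, chr5:51454250-51567726), measured 31.5, 12.2, 54.7 and 17.9 CPM with vehicle and 6.78, 6.31, 8.05 and 10.0 CPM with HPβCD. Every HPβCD animal was below every vehicle animal, with vehicle animals 1 and 3 far above the others. The log2 fold change was -1.90 ± 0.44 (SE, adjusted p = 0.0624 by edgeR and 0.000856 by DESeq2), and -0.93 without vehicle animals 1 and 3 (adjusted p = 0.0944 by edgeR). *Ppargc1b*, the related coactivator, overlapped at 3.22, 2.78, 4.24 and 1.51 CPM with vehicle and 3.28, 3.80, 2.90 and 3.44 CPM with HPβCD.

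*Ppara*, the receptor best known for inducing fatty acid oxidation, was low throughout, at 2.26, 1.84, 4.36 and 2.64 CPM with vehicle and 1.61, 1.16, 1.34 and 1.44 CPM with HPβCD. The groups did not overlap, with a log2 fold change of -0.99 ± 0.31 (SE, adjusted p = 0.094 by edgeR and 0.0594 by DESeq2), and -0.66 without vehicle animals 1 and 3. *Ppard*, the receptor found in most tissues, measured 15.4, 16.2, 15.7 and 15.8 CPM with vehicle and 18.1, 18.7, 20.4 and 15.9 CPM with HPβCD. *Pparg*, a receptor of adipocytes and macrophages, measured 10.6, 22.8, 10.5 and 14.1 CPM with vehicle and 18.6, 20.6, 17.0 and 18.3 CPM with HPβCD. Vehicle animal 2 was the highest of all 8 animals for *Pparg*, and vehicle animals 1 and 3 were the lowest. The log2 fold change of *Pparg* was 0.36 ± 0.26 (SE, adjusted p = 0.402 by edgeR) and 0.02 without those 2 animals. Adipocyte markers summed to 1.45 to 3.22 CPM, and *Lep* had no counts in any library.

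**Figure D3:**
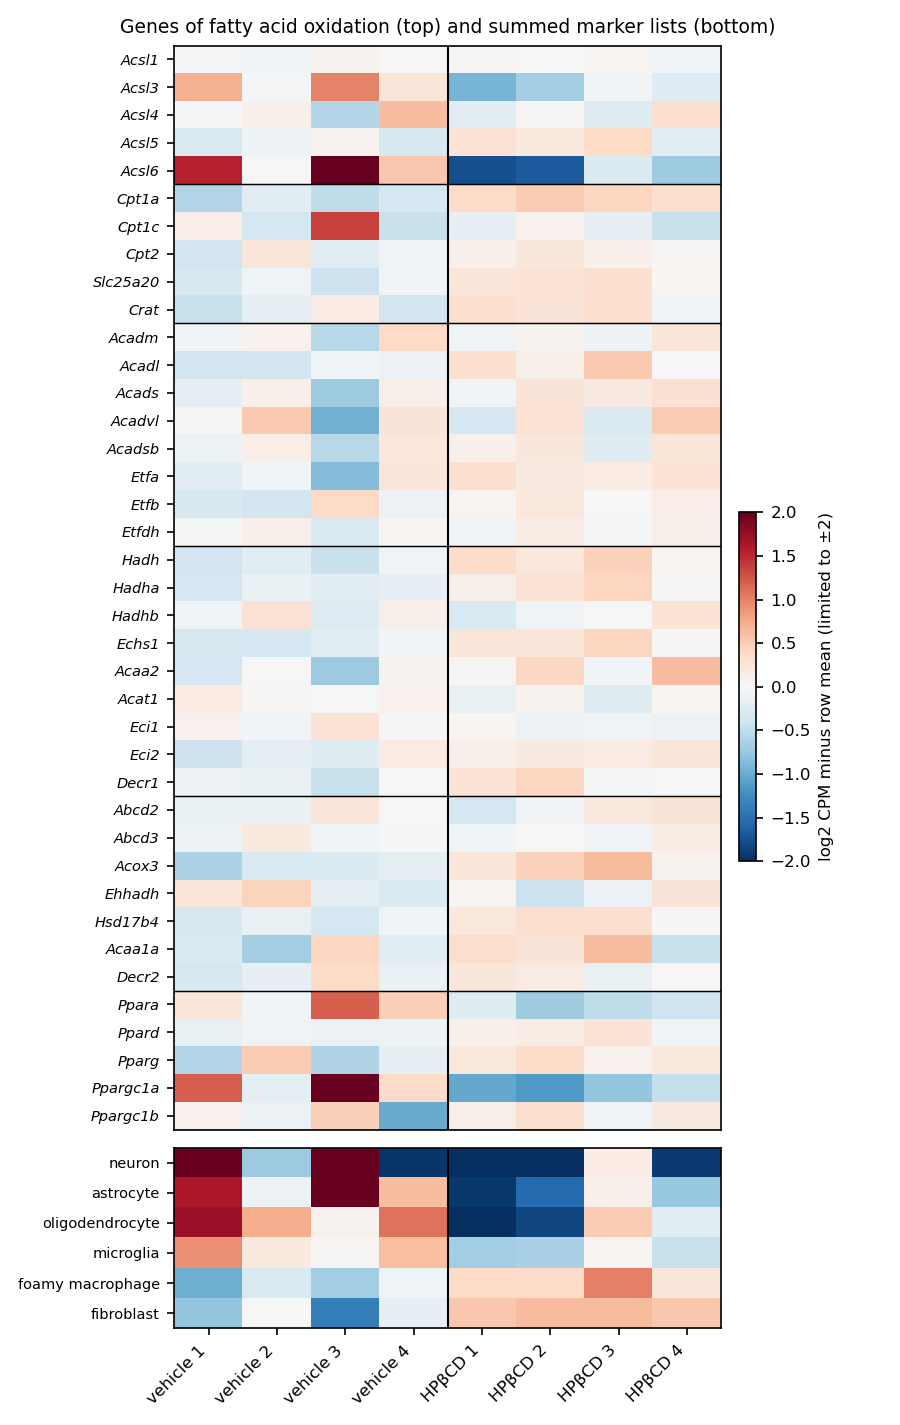
Log2 CPM of the 39 genes in each animal minus the mean of the row (top), and summed levels of 6 marker lists treated in the same way (bottom); colours are limited to ± 2 and lines separate the role groups and treatments. *Acsl6*, *Acsl3* and *Ppargc1a* are highest in vehicle animals 1 and 3, as are neuron and astrocyte markers, while *Cpt1a*, *Acox3* and *Hadh* are above the row mean in every HPβCD animal.

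Ratios within an animal need no scaling between libraries, and 4 were compared between groups with an exact permutation test, two-sided, of the 70 ways to split the animals (smallest possible p 0.0286), adjusted over the 4. The log2 ratio of *Cpt1c* to *Cpt1a* was -1.96, -2.83, -0.81 and -2.78 in vehicle animals 1 to 4 and -3.22, -3.10, -3.28 and -3.46 in HPβCD animals. It was lower by -1.17 on average with HPβCD (exact permutation p = 0.0286, adjusted p = 0.0381), and the groups did not overlap. For *Acsl6* to *Acsl1* the mean log2 ratio was 0.60 ± 0.98 with vehicle and -1.61 ± 0.71 with HPβCD (SD, n = 4; exact permutation p = 0.0286, adjusted p = 0.0381).

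The log2 ratio of *Ppargc1a* to *Ppargc1b* was 3.12 ± 0.70 with vehicle and 1.18 ± 0.37 with HPβCD (SD, n = 4; exact permutation p = 0.0286, adjusted p = 0.0381). That of *Abcd2* to *Abcd3* was -0.39 ± 0.27 and -0.38 ± 0.21, a difference of 0.01 (exact permutation p = 0.943). Without vehicle animals 1 and 3 the differences were -0.46 for *Cpt1c* to *Cpt1a*, -1.41 for *Acsl6* to *Acsl1* and -1.61 for *Ppargc1a* to *Ppargc1b*, in a design of 2 against 4 whose smallest p is 0.0667. Vehicle animals 1 and 3, with the highest neuron and astrocyte markers, also had the highest ratios of *Cpt1c* to *Cpt1a* and of *Acsl6* to *Acsl1*, and the part of those cells in the ratios was not tested.

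**Figure D4:**
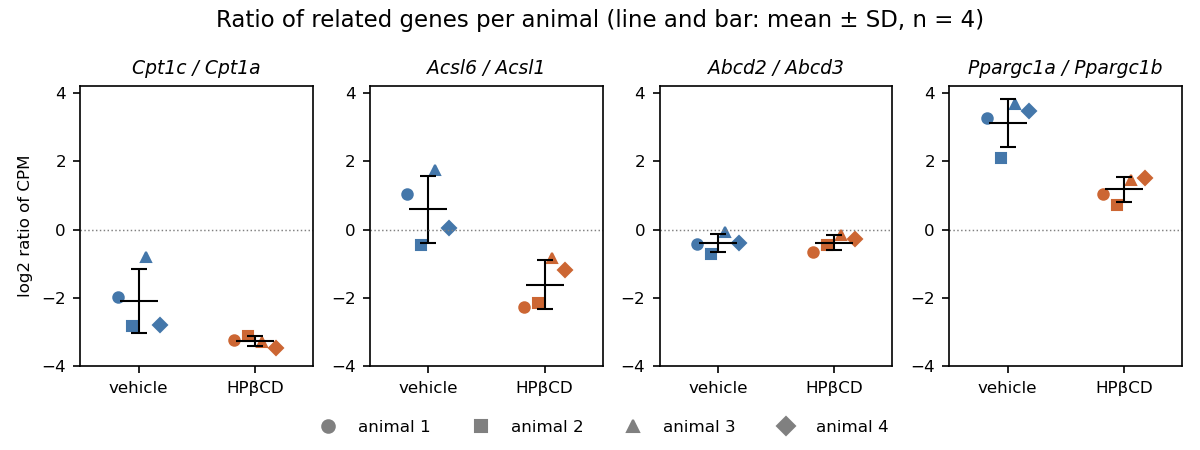
Log2 ratio of CPM of 4 pairs of related genes in each animal; symbols mark animal numbers, horizontal lines are means and bars are ± 1 SD (n = 4 per group). In all panels other than that of *Abcd2* to *Abcd3* every HPβCD animal lies below every vehicle animal, and in that panel the groups overlap.

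Beyond the 39 genes, 7 lists of related genes held 112 genes, of which 103 were tested. *Cat*, the catalase that removes the hydrogen peroxide made by peroxisomal oxidases, measured 116, 143, 83.0 and 128 CPM with vehicle and 238, 272, 219 and 296 CPM with HPβCD. *Cat* rose by 1.13 ± 0.19 (log2, SE, adjusted p = 0.0472 by edgeR), the groups did not overlap, and the value was 0.94 without vehicle animals 1 and 3 (adjusted p = 0.0397). Leaving out single animals gave 0.99 to 1.24, with the adjusted p above the threshold without vehicle animal 1 (0.151) or 4 (0.0635) or HPβCD animal 1 (0.156), 2 (0.175) or 3 (0.0899). The part in this difference of the marker lists with higher sums in every HPβCD infarct, foamy macrophages and fibroblasts among them, was not tested.

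Of 13 genes for fatty acid uptake and binding, edgeR called none. DESeq2 called *Fabp5* higher (7.69%, against 5.92% of all genes) and *Fabp7* lower (7.69%, against 11.1%). The median log2 fold change of the 13 genes was 0.28. *Fabp5*, a fatty acid binding protein of macrophages, measured 1090, 922, 2040 and 1670 CPM with vehicle and 5960, 3630, 4410 and 1970 CPM with HPβCD, where HPβCD animal 4 lay within the vehicle range (adjusted p = 0.0688 by edgeR). Of 13 known PPAR target genes, 8 were tested and edgeR called none, with a median of 0.61. Of the 8, 6 had log2 fold changes above 0 and 2 below 0, and DESeq2 called 2 higher and 1 lower. The 2 below 0 were *Lpl*, lipoprotein lipase, and *Pdk4*, which limits glucose oxidation. *Lpl* had -0.21 (-0.64 without vehicle animals 1 and 3). *Pdk4* had -1.24 ± 0.42 (SE, adjusted p = 0.105 by edgeR and called lower by DESeq2, -0.80 without vehicle animals 1 and 3). Over 26 other oxidation enzymes tested the median was 0.04, and the brain acyl-CoA synthetase *Acsbg1* had a log2 fold change of -1.92 ± 0.54 (SE, adjusted p = 0.0824 by edgeR, -1.26 without vehicle animals 1 and 3). *Cpt1b*, the muscle form of carnitine palmitoyltransferase, had no counts in any library and is named because of that.

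In 16 partners of the nuclear receptors the median was -0.17, and edgeR called none. DESeq2 called *Rxra* higher (6.25%, against 5.92% of all genes) and *Esrrg* lower (6.25%, against 11.1%). The orphan receptor *Esrrg* had the lowest value, at -3.82 ± 1.20 (SE, adjusted p = 0.0976 by edgeR), which was -0.36 without vehicle animals 1 and 3. *Rxra*, the retinoid X receptor with which PPARs pair, measured 75.8, 117, 84.3 and 143 CPM with vehicle and 205, 269, 189 and 181 CPM with HPβCD, without overlap (log2 fold change 1.01 ± 0.23 SE, adjusted p = 0.0599 by edgeR). Vehicle animals 1 and 3 had the lowest *Rxra* levels, and without them its log2 fold change was 0.71 (adjusted p = 0.104 by edgeR). For 19 peroxisome biogenesis and antioxidant genes the median was 0.00, with *Cat* as the 1 gene called by edgeR (5.26%, against 1.95% of all genes). DESeq2 called *Cat* and *Pxmp4*, both higher (10.5%, against 5.92%). For 17 citric acid cycle genes the median was -0.10, with none called by edgeR and *Ogdh* called higher by DESeq2 (5.88%, against 5.92%). Of these, *Sdha* had 0.38 (0.70 without vehicle animals 1 and 3) and *Idh3a* -0.59 (-0.14 without them). For 4 ketone body genes the median was 0.34, with none called by edgeR and *Bdh2* called higher by DESeq2 (25.0%, against 5.92%). *Bdh2* had a log2 fold change of 0.95 ± 0.24 (SE, adjusted p = 0.0658 by edgeR), and 0.74 without vehicle animals 1 and 3 (adjusted p = 0.109 by edgeR).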

How the data were processed

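Strand-specific libraries of polyadenylated RNA were made from 8 infarcts. According to the labels and methods, the authors trimmed reads with Trimmomatic 0.32, aligned them to GRCm38 with STAR 2.5.2b and counted them with HTSeq. The version and strand option of HTSeq and the annotation release are not given in the sources used here. The deposited values are raw counts per gene, without normalization. Reads assigned to no gene were left out. They made up 28.5% to 36.6% in vehicle libraries, the most in vehicle animal 3, and 26.6% to 30.7% in HPβCD libraries. Symbols matched 45143 identifiers, and coordinates are GENCODE M21 on GRCm38.

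HPβCD was compared with vehicle by edgeR 4.0.16 in R 4.3.3 (robust quasi-likelihood F test, TMM factors, filterByExpr by group, no covariate), with Benjamini-Hochberg adjustment over all genes tested and a threshold of 0.05. The procedure was tested on simulated data. SEs are the fold change divided by the root of its F value. CPM used TMM-scaled totals and log2 CPM a prior count of 2. Levels per kb used the length of the principal transcript. Alternatives were DESeq2 1.42.0, limma-voom (limma 3.58.1), RLE factors, library totals, other filters, a replicate block, leaving out each animal, leaving out vehicle animals 1 and 3, and for the ratios a prior of 0.5 counts. No 2 libraries agreed within sampling noise (lowest chi-square per degree of freedom 18.9). The labels give no batch.

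The 39 genes, the lists and vehicle animals 1 and 3 were chosen with earlier results of these data known, so counts over lists are descriptions. Values in each animal are given for genes with an adjusted p under 0.05, for the 2 largest fold changes and the highest level per length in each role, for PPARs and coactivators, and for the 4 pairs. From related lists, called genes and the gene with the highest level or the largest fold change are named. *Fabp7*, *Pxmp4* and *Ogdh* are named for DESeq2 calls, after their values were seen. Values of other genes are ranges. Some genes of the related lists are not reported here.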

Additional observations from a re-analysis of the deposited data

How the results depend on the processing

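The count of genes called is the result most dependent on the processing. DESeq2 called 8 of the 39 genes higher and 3 lower, and limma-voom with sample quality weights 11 and 4. RLE factors, no filter and a filter of 1 CPM in 4 libraries each gave 1 higher and 0 lower. Library totals alone gave 0 and 0 (*Cpt1a* 0.73, adjusted p = 0.0549), with 11 genes called over the whole table in place of 287. Leaving out single animals gave 0 to 2 higher and 0 to 2 lower. *Cpt1a* with *Acsl6* and *Ppargc1a* were called without vehicle animal 2, *Cpt1a*, *Acox3* and *Ppargc1a* without vehicle animal 3, *Cpt1a* without HPβCD animal 4, and none without any other animal, where 0 to 4 genes were called over the whole table. The median log2 fold change of the 39 genes stayed between 0.12 and 0.23 under all alternatives. The cause of these differences was not tested.

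Several values near 0 changed sign. With limma-voom these were *Cpt1c* (0.19), *Abcd3* (-0.03), *Abcd2* (-0.04), *Acadm* (-0.19) and *Acadvl* (-0.20). With library totals they were *Acsl1* (-0.07), *Abcd3* (-0.08), *Abcd2* (-0.05), *Acadm* (-0.06), *Acadvl* (-0.06) and *Etfdh* (-0.01), and with the 1 CPM filter *Acsl1* (-0.0038) and *Abcd3* (-0.0083). Without vehicle animals 1 and 3 they were *Cpt1c* (0.25), *Abcd3* (-0.07), *Acadm* (-0.20), *Acadvl* (-0.29), *Acadsb* (-0.06) and *Etfdh* (-0.01). Leaving out single animals, values ranged from -0.72 to 0.04 for *Cpt1c*, -0.0032 to 0.04 for *Acsl1*, -0.04 to 0.08 for *Abcd3*, -0.06 to 0.14 for *Abcd2*, -0.11 to 0.21 for *Acadm*, -0.26 to 0.15 for *Acsl4*, -0.01 to 0.42 for *Ppargc1b*, -0.19 to 0.24 for *Acadvl*, -0.23 to 0.03 for *Ehhadh* and -0.16 to 0.05 for *Hadhb*. None of these genes was called in any of these fits.

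The differences in log2 ratio ranged, leaving out single animals, from -1.41 to -0.74 for *Cpt1c* to *Cpt1a*, -2.55 to -1.82 for *Acsl6* to *Acsl1*, -2.29 to -1.77 for *Ppargc1a* to *Ppargc1b* and -0.10 to 0.12 for *Abcd2* to *Abcd3*. For the first 3 the adjusted p was 0.0381 on leaving out any 1 vehicle animal and 0.114 on leaving out any 1 HPβCD animal. Without vehicle animals 1 and 3 the differences were -0.46, -1.41 and -1.61 (adjusted p 0.133, 0.178 and 0.133). A prior of 0.5 counts changed no call.

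Replicate numbers were treated as plain sample numbers. The correlation of deviations between same-numbered animals was -0.257, 0.244, 0.329 and 0.0975. Vehicle animals 2 and 3 matched best the HPβCD animal of the same number, and vehicle animals 1 and 4 did not. So few values cannot show whether the numbers pair the animals. With the replicate number as a block, edgeR called 0 of the 39 genes (*Cpt1a* 0.83, adjusted p = 0.0777) and 9 genes over the whole table. Within pairs, the ratios differed by -1.17, -2.21 and -1.95 (exact sign-flip p = 0.125 each, the smallest that 4 pairs allow). Depth limited *Ppara* most of the 39 genes, at 19 to 72 counts per library.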

Other observations

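Of the 8 genes for which every HPβCD value lay above every vehicle value, HPβCD animal 4 had the lowest level of its group in all 8. It measured 149 CPM for *Cpt1a*, 28.5 CPM for *Slc25a20*, 68.6 CPM for *Acadl*, 90.4 CPM for *Hadh*, 120 CPM for *Hadha*, 125 CPM for *Echs1*, 103 CPM for *Acox3* and 106 CPM for *Hsd17b4*. The same animal had the lowest summed foamy macrophage markers of the HPβCD group (13700 CPM, beside 15200, 15200 and 23200 CPM). It also had the lowest *Fabp5* (1970 CPM), endothelium markers (407 CPM) and summed citric acid cycle genes (1870 CPM) of that group. The part of cell types in these levels was not tested. For *Acaa2* HPβCD animal 4 was the highest of all 8 animals, at 285 CPM.

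*Hadha* and *Hadhb*, whose products form one complex, had log2 fold changes of 0.43 ± 0.13 and -0.05 ± 0.17 (SE). This difference between genes was not tested.

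Vehicle animal 3 had the lowest levels of the 8 animals for *Acadm* (62.4 CPM), *Acadvl* (11.7 CPM), *Acadsb* (102 CPM), *Acads* (13.4 CPM), *Etfa* (32.1 CPM) and *Acaa2* (112 CPM). The same held for *Acsl4* (149 CPM), *Slc25a20* (20.8 CPM), *Etfdh* (33.1 CPM), *Hadh* (65.1 CPM), *Decr1* (38.4 CPM), *Hsd17b4* (81.1 CPM) and *Pparg* (10.5 CPM). Vehicle animal 3 had the highest levels for *Acsl3*, *Acsl6*, *Cpt1c*, *Ppara*, *Ppargc1a* and *Ppargc1b*. It was also the highest for *Acsl1* (49.5 CPM), *Etfb* (24.2 CPM), *Eci1* (11.4 CPM) and *Decr2* (29.8 CPM). This was also the library with the highest neuron and astrocyte markers.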
